A study of Mus musculus with 13 samples.

Results

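The unirradiated course of CT26 tumors was followed here through the RNA of their leukocytes, from baseline to day 21. The members are the 5 samples, of 13 in the series, that received 0 Gy: a baseline sample taken before the start of radiotherapy (RT), and 1 sample each at T2, T7, T14 and T21, days 2, 7, 14 and 21 after that start. Each of the 4 later samples was set against that same baseline sample, so the 4 comparisons share it and are not independent of each other. CT26 is a mouse colon carcinoma line, grown under the skin of the flank of female BALB/c mice that were 6 weeks old, and day 0 was reached 12 days after implantation. All 5 samples share this strain, this tumor line and the absence of irradiation, and they differ in the time of tumor growth and in the nCounter run. Leukocytes were taken from dissociated tumors with magnetic labels for CD45, and their RNA was measured by nCounter, in which a barcoded probe binds each RNA and the barcodes are counted directly, without an amplification step. The methods give 3 mice per group for this assay, and whether a sample pools them is not stated, so each value is 1 measurement with no replicate. No test was possible for that reason, and the intervals given beside differences cover counting error only.

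The nCounter mouse immunology panel holds 547 immune genes besides its 14 housekeeping genes. Genes whose raw counts averaged 13.1 or less over all 13 samples were removed, this limit being the negative controls' mean plus 2 SD averaged over samples. That left 415 genes and removed 132. Normalized values are raw counts multiplied by 1 factor per sample that brings the housekeeping genes to the same geometric mean, except that raw counts below the geometric mean of a sample's negative controls were replaced by that mean. Among the 415 genes this replaced 0 values at baseline and T2, 1 at T7 (3.62), 5 at T14 (6.38) and 10 at T21 (6.06), all at background. Differences are given as log2 of the normalized value at a later time minus baseline, with the 95% counting interval in parentheses, and genes past 2-fold are called higher or lower. Where a raw count did not exceed the background of its own sample, between 6.23 and 18.3 counts, the fold against the other sample is given as a lower bound. The bound sets the observed count of the other sample against that background, with no background taken off and without counting error. The counting interval can therefore reach below a fold given as "at least".

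CD45, the product of Ptprc, is a phosphatase on the surface of nearly all leukocytes, and a tumor holds many kinds of them. Neutrophils, monocytes and macrophages are the phagocytes of innate immunity, and immature myeloid cells in tumors, called myeloid-derived suppressor cells (MDSC), can restrain T cells. Dendritic cells and macrophages load peptides on MHC class II molecules and show them to CD4+ T cells, whereas MHC class I molecules show peptides to CD8+ T cells, which kill their targets with granzymes and perforin. Regulatory T cells (Treg) carry Foxp3 and CTLA-4 and hold other T cells back.

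The samples were read in 3 nCounter runs, and only T2 shared the run of baseline (run 3). T7 was read in run 1 and both T14 and T21 in run 2, so for these 3 times the run and the time cannot be told apart in a comparison with baseline. Total counts of the 5 samples lay between 150567 and 237863, and 345 to 419 genes per sample were above background. Run 2 stood apart in the spiked positive controls: the second control gave 18.6 to 20.2% of the first in its 5 samples and 34.1 to 44.0% in the 8 samples of the other runs, and the third gave 3.50 to 4.55% against 8.29 to 10.4%. For 17 of the 415 genes all samples of run 2, irradiated ones included, were above all samples of the other runs, and 40 genes were below. In run 1 these numbers were 68 and 6, and in run 3, which holds baseline, they were 24 and 19. Genes of this kind are said to follow that run. Of the genes described below, Cd74, H2-Eb1, Hcst, Lilra5, Nos2, Psmb10, Socs3, Tap1 and Tnfrsf13b lay lower in run 3 than in all samples of runs 1 and 2. Cd34, Fn1, Itga6 and Sele lay higher in run 3. For these genes a difference between baseline and T7, T14 or T21 goes with the run of baseline as well as with time.

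The label of sorted leukocytes was checked against marker genes. Ptprc had normalized values of 518 at baseline, 389.7 at T2, 1100.1 at T7, 633 at T14 and 199.6 at T21, above background in all 5 samples. Genes of T cells (12 kept), cytotoxic cells (11), NK cells (6), macrophages (13) and neutrophils (9) were measured, while none of the 3 mast cell, basophil and eosinophil genes on the panel was kept. Genes listed for tumor, stromal and endothelial cells, which lack CD45, were measured too. All 10 of the list on the panel were above background at baseline, among them Fn1 (fibronectin), Cd34 and Sele (E-selectin). Whether their RNA came from such cells or from leukocytes was not tested. The summed normalized value of these 10 genes was 7841 at baseline, 8724 at T2, 4783 at T7, 3275 at T14 and 4399.7 at T21. Over 9 genes found in most leukocytes the sum was 2856, 2649.8, 5048, 3438 and 2001 in the same order. The CD45-negative sum was thus highest at T2 and the pan-leukocyte sum at T7, and both were below baseline at T21. Single genes made up much of these sums: Fn1 had 4039 of 7841 at baseline, and Arhgdib 1366 of 2001 at T21. By median log2 difference from baseline the lists parted at T21. It was -0.33 for the CD45-negative genes and -1.38 for the pan-leukocyte genes, beside -0.71 for all genes. Pan-leukocyte scaling made these 0.82, -0.22 and 0.44. At T7, 5 of the 9 pan-leukocyte genes, Ptprc included, followed run 1 from above. In RNA from bulk cells, fewer cells of a type and less RNA per cell cannot be told apart.

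The spread of the 415 genes was smallest at T2, in the run of baseline, larger at T7, and nearly equal at T14 and T21, both of run 2. These steps go with the run as well as with time. Against baseline, the median gene differed by -0.16 at T2, 0.14 at T7, -0.12 at T14 and -0.71 at T21 on the log2 scale, and the SD over genes was 0.51, 0.89, 1.06 and 1.07. At T2, 3 genes (0.723%) were higher and 24 (5.78%) lower. At T7, 79 (19.0%) were higher and 25 (6.02%) lower. The T14 sample had 55 higher (13.3%) and 63 lower (15.2%) genes, and the T21 sample 21 (5.06%) and 158 (38.1%). A difference of 4-fold or more was reached by 1 gene at T2, 17 at T7, 28 at T14 and 47 at T21. Without the genes that follow the run of the later sample T7 had 46 higher and 24 lower genes, T14 had 45 and 49, and T21 had 10 and 135. Leaving out those that follow run 3 as well, T7 had 40 and 20, T14 had 33 and 38, and T21 had 4 and 132. The 4 higher genes left at T21 were S100a8, S100a9, Cxcl13 and Cd8a. Counting error set limits to some of these: the whole interval lay beyond 2-fold for 2 genes at T2, 45 at T7, 56 at T14 and 84 at T21.

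The balance of higher and lower genes moved with the scaling, which shifts all genes of a sample by 1 amount apart from the replaced low values. Scaling by the median of ratios, by total endogenous counts and by pan-leukocyte genes added 0.17, 0.08 and 0.29 to the median log2 difference at T2. For T7 these shifts were -0.21, -0.40 and -0.94, for T14 0.05, -0.13 and -0.28, and for T21 0.68, 0.37 and 1.16. In the order of these scalings, T2 had 6, 4 and 7 higher genes beside 18, 20 and 13 lower ones. T7 had 53, 38 and 13 higher beside 39, 58 and 152 lower, and T14 had 60, 44 and 38 beside 53, 75 and 101. T21 had 60, 45 and 107 beside 60, 96 and 25. A difference is therefore best read against the median of all genes at its own time.

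**Figure D1:**
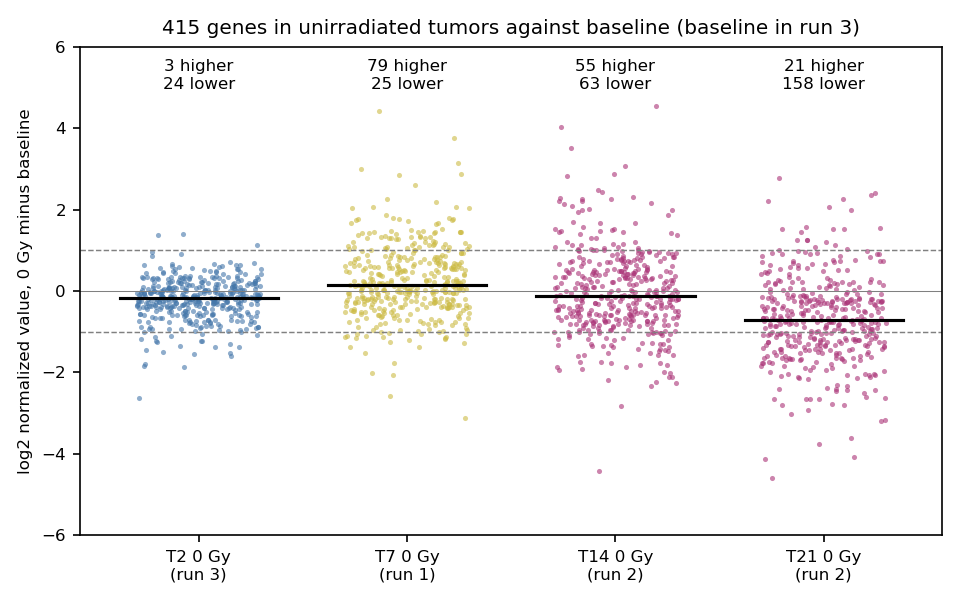
Log2 normalized value of each 0 Gy sample minus baseline (vertical axis) for 415 genes, 1 point per gene, by sample and nCounter run (horizontal axis); black bars are medians and dashed lines mark 2-fold. Points spread least at T2, the sample that shares the run of baseline, and at T21 the bulk of points lies below 0 with 158 genes past 2-fold lower; genes at background in 1 sample are drawn at their computed value, which is no bound.

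The calprotectin genes S100a8 and S100a9 showed the largest differences among genes measured in both samples at T7, and the promoters of this neighbouring pair are printed with those of 2 MHC class II genes that parted ways later on. Each sequence is the 250 bases before the annotated start (RefSeq, GRCm38.p6), read in the direction of the gene. Capitals mark matches on either strand to a TATA box (TATAAA), to a C/EBP-type motif (TTGCNNAA) in the S100 genes, and to the Y box of class II promoters (CTGATTGG) in the H2 genes, with no overlap between matches.
S100a8 (chr3:90668821-90669070, plus strand): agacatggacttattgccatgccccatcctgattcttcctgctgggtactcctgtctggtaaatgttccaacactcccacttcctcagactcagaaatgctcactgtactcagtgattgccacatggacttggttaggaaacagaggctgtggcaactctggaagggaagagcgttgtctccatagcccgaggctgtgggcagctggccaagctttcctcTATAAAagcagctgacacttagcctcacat
S100a9 (chr3:90695722-90695971, minus strand): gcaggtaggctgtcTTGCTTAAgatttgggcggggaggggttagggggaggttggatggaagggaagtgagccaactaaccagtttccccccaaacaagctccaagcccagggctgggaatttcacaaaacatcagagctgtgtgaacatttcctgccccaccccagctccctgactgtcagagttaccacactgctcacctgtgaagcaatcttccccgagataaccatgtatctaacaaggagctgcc
H2-Aa (chr17:34287824-34288073, minus strand): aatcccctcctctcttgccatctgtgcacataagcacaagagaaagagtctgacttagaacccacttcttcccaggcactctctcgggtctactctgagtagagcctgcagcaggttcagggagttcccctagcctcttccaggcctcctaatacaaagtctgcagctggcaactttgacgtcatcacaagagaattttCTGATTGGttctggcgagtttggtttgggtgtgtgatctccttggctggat
H2-Eb1 (chr17:34305617-34305866, plus strand): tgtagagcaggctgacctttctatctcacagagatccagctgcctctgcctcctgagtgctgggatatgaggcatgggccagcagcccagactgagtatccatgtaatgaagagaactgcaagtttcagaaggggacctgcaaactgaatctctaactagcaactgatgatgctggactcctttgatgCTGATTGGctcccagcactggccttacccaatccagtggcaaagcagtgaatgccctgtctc
The TATA match of S100a8 begins 30 bases before its start, and the C/EBP-type match of S100a9 begins 236 bases before. Both class II windows hold the Y box on the strand of the gene, 51 bases before the start of H2-Aa and 62 before that of H2-Eb1. Of 32851 mouse promoter windows of the same length, 12.4% hold TATAAA, 9.56% TTGCNNAA and 3.83% CTGATTGG. These matches describe the letters only.

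At T2, the one comparison within a run, 24 genes were lower and 3 higher. By list, 1 of 12 T cell genes (8.33%), 3 of 8 CD4 and Treg genes (37.5%), 1 of 7 dendritic cell genes (14.3%) and 0 of 13 monocyte and macrophage genes were lower, against 5.78% of all genes. Ctla4 and Cd55 were the genes whose whole interval lay beyond 2-fold. Among the 24 lower genes were Cd3d, Cd4, Tigit, Pdcd1, Il2rb and Foxp3 of lymphocytes, and Ciita, Cd40, Ccl22 and Cd163 of antigen-presenting cells and macrophages. Il12rb2, a chain of the receptor for the cytokine IL-12, gave raw counts of 28 at baseline, 8 at T2, 22 at T7, 9 at T14 and 11 at T21. At T2 it differed by -1.59 (-2.94 to -0.42). Cd4, the co-receptor of helper T cells, differed by -1.07 (-2.01 to -0.20), and C3, the central complement component, by -1.11 (-1.59 to -0.64). Most of these counts were low at T2, and 5 of the 24 genes were not above background there: Cd55, Nod2, Ifng, Cd8a and Sh2d1a. The higher genes were Cx3cl1, at 1.41 (0.75 to 2.10), Nos2, at 1.13 (-0.11 to 2.48), and Irf3, a transcription factor of the antiviral response. Irf3 was at background at baseline and at least 2.47-fold higher by the bound, with a computed difference of 1.38 (0.11 to 2.79). With pan-leukocyte scaling 13 genes stayed 2-fold lower and these 3 stayed higher.

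Neutrophil and MDSC genes stood above baseline at T7 and T14, and the S100 pair still did at T21. S100a9, whose product forms calprotectin with that of S100a8 in neutrophils and monocytes, had normalized values of 499 at baseline, 967 at T2, 10738 at T7, 8098 at T14 and 3423 at T21. S100a8 had 413 at baseline, 679.7 at T2, 5597 at T7, 4729 at T14 and 1729 at T21. Both genes were lowest at baseline, highest at T7, and above the baseline value at every later time. The differences of S100a9 were 0.96 (0.77 to 1.14), 4.43 (4.28 to 4.58), 4.02 (3.87 to 4.18) and 2.78 (2.62 to 2.94), that is 21.5-fold at T7 and 6.87-fold at T21, and those of S100a8 were 0.72, 3.76, 3.52 and 2.07. Neither followed any of the 3 runs.

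Receptors of neutrophils followed the same order at lower levels of difference. Csf3r, the receptor for the growth factor G-CSF, had normalized values of 95.2 at baseline, 117 at T2, 692 at T7, 460.3 at T14 and 173 at T21. Cxcr2, through which neutrophils follow chemokines, had 17.2 at baseline, 18.4 at T2, 126 at T7, 84.8 at T14 and 32.4 at T21. Both peaked at T7 and were lower again at T14 and T21, with differences of 2.86 (2.50 to 3.24) and 2.87 (2.03 to 3.83) at T7 and of 0.86 (0.43 to 1.30) and 0.91 (-0.12 to 2.01) at T21. Trem1, an activating receptor of myeloid cells, differed by 2.26 at T7, 1.52 at T14 and -0.19 at T21, and Il1r2, the decoy receptor of interleukin-1, by 1.75, 0.54 and -0.48. Of the 9 kept genes of the list, 0 were higher at T2, 8 at T7, 5 at T14 and 2 at T21. From T7 on these are 88.9, 55.6 and 22.2%, beside 19.0, 13.3 and 5.06% of all genes. The median difference was 0.29, 2.26, 1.52 and 0.41, above the median of all genes each time. These medians kept their sign under 3 other scalings. The 2 genes still counted at T21 were the S100 pair.

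Further genes with a myeloid or broader expression shared the high values of T7. Cd24a, a surface glycoprotein of neutrophils and of B and tumor cells, had 23.8 at baseline, 18.4 at T2, 209.8 at T7, 129.6 at T14 and 45.9 at T21. Lilra5, a receptor of monocytes and neutrophils, had 14.6 at baseline, 10.7 at T2, 116 at T7, 69.8 at T14 and 33.7 at T21. Icosl, the ligand of the T cell receptor ICOS, had 31.7 at baseline, 59.8 at T2, 145 at T7, 56.5 at T14 and 17.5 at T21, and its value at T21 was at background. All of these were highest at T7, where the differences were 3.14 (2.43 to 3.93), 2.99 (2.09 to 4.04) and 2.19 (1.55 to 2.89). Icosl followed the run at T7, as did Tlr9, a sensor of DNA in endosomes, at 2.05, and Clec5a, a C-type lectin of myeloid cells, at 2.06.

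Chemokines that attract neutrophils through CXCR2 did not move as a block. Cxcl1 had normalized values of 2128 at baseline, 2674 at T2, 2128 at T7, 1201 at T14 and 790.4 at T21, lowest at T21, but it followed run 2. Cxcl3 had 97.9 at baseline, 123 at T2, 156 at T7, 397 at T14 and 162 at T21, highest at T14 with a difference of 2.02 (1.64 to 2.42). Of the 3 kept ligands, none was 2-fold higher or lower at T2 or T7.

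**Figure D2:**
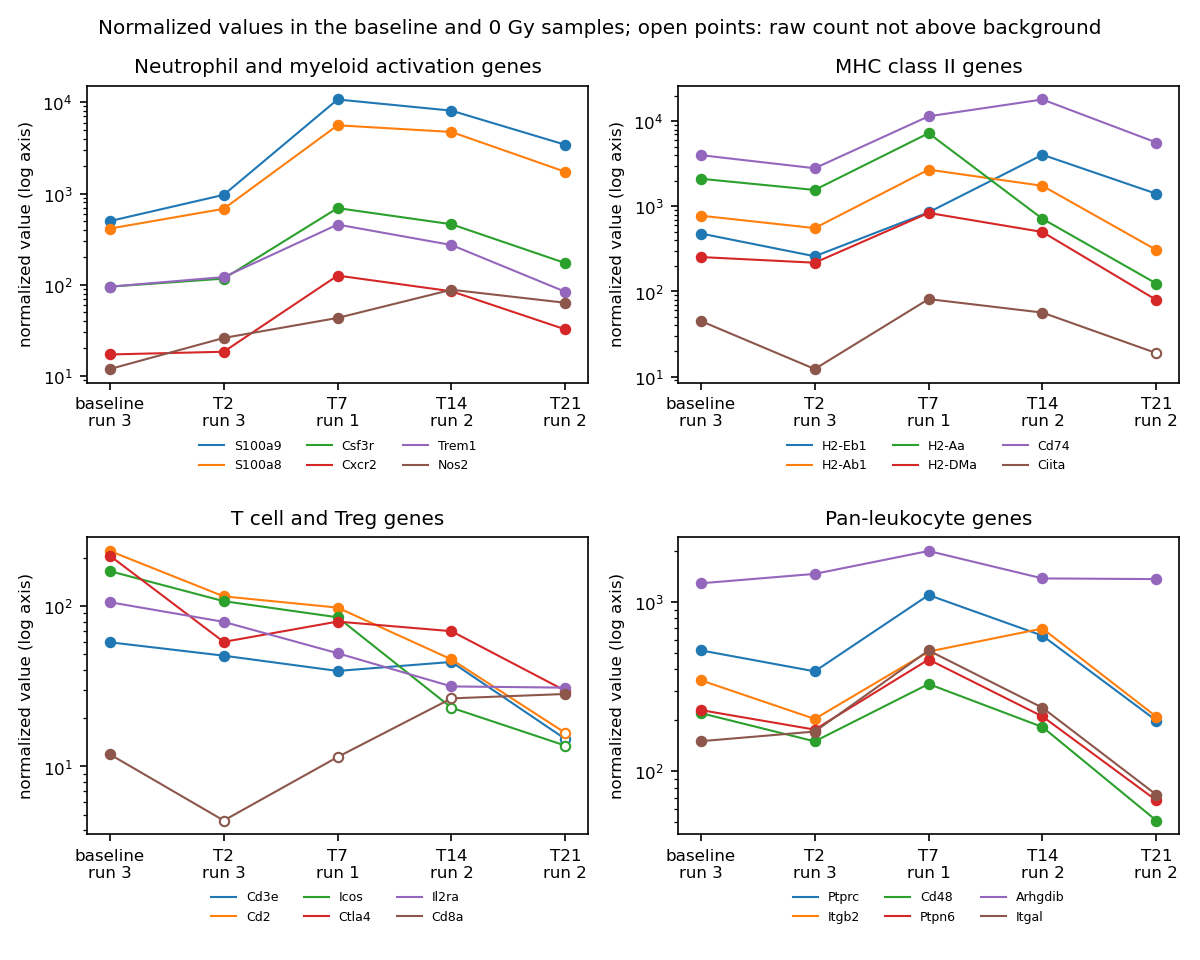
Normalized values (vertical log axes, housekeeping-scaled nCounter counts) in the baseline sample and the 4 samples at 0 Gy, ordered by time with the nCounter run, for genes of 4 groups; 1 value per sample, lines only join the values of a gene, and open points were not above background. S100a9, S100a8, Csf3r, Cxcr2 and Trem1 are highest at T7; H2-Aa is lower and H2-Eb1 higher at T14 than at T7; Cd2, Icos and Ctla4 are lowest at T21; and Ptprc is highest at T7 and lowest at T21.

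Most monocyte and macrophage genes were higher at T7, and fewer were higher at T14 or lower at T21. Adgre1, which encodes the macrophage marker F4/80, had 205 at baseline, 230.2 at T2, 865 at T7, 560.0 at T14 and 136 at T21. Itgam, the CD11b integrin chain of myeloid cells, had 311 at baseline, 290.0 at T2, 1054 at T7, 1246 at T14 and 332 at T21. Their differences were 2.08 (1.82 to 2.34) and 1.76 (1.55 to 1.98) at T7 and 1.45 (1.17 to 1.73) and 2.00 (1.79 to 2.22) at T14, while at T21 they were -0.59 (-0.97 to -0.22) and 0.09 (-0.17 to 0.36). Ccr2, the receptor by which monocytes leave the blood for tissue, took another course, with 294 at baseline, 184 at T2, 417 at T7, 176 at T14 and 47.2 at T21 and a difference of -2.64 (-3.19 to -2.12) at T21. Of the 13 kept genes, 10 were higher at T7 and 6 at T14 with none lower, that is 76.9% and 46.2% against 19.0% and 13.3% of all genes. At T21 none was higher and 6 were lower, 46.2% against 38.1%. The median difference was 1.29 at T7, 0.93 at T14 and -0.89 at T21. When samples were scaled to pan-leukocyte genes it was 0.35 at T7 and 0.65 at T14, and at T21 it turned to 0.26. Of these genes, 5 followed the run at T7.

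Genes of resident macrophages split. C1qa, a chain of the first complement component that macrophages make, had 1479.8 at baseline, 1376 at T2, 3945 at T7, 3008 at T14 and 754 at T21, highest at T7. Cd163, a scavenger receptor of resident macrophages, had 114 at baseline, 41.4 at T2, 50.9 at T7, 51.5 at T14 and 14.8 at T21, and the chemokine gene Ccl8 had 525 at baseline, 279 at T2, 153 at T7, 251 at T14 and 104 at T21. Both were highest at baseline and lowest at T21. Cd163 was already lower at T2, at -1.46 (-2.14 to -0.82), in the run of baseline, and by T21 it was at least 5.44-fold lower. Ccl8 differed by -0.91 (-1.17 to -0.65) at T2 and -2.34 (-2.71 to -1.98) at T21. Over the 5 kept genes the median was -0.91 at T2 and -2.08 at T21, lower under every scaling tried.

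Receptors for the Fc part of antibodies were above baseline at T7 and below it at T21. Of 6 genes, 4 were higher at T7 (66.7% beside 19.0% of all genes) and 4 lower at T21 (66.7% beside 38.1%). The medians of 1.10 and -1.25 were 0.17 and -0.10 under pan-leukocyte scaling. Fcgr2b, the inhibitory receptor, had 2296 at baseline, 1926 at T2, 4600.1 at T7, 2822 at T14 and 682 at T21, and Fcgr3 had 264 at baseline, 276 at T2, 647 at T7, 301 at T14 and 80.9 at T21. Both were highest at T7, where they followed the run, and lowest at T21. Toll-like receptors and other innate sensors gave 12 of 27 higher at T7 (44.4% beside 19.0% of all genes), 10 of the 27 following the run. Their median of 0.81 at T7 became -0.13 under pan-leukocyte scaling. At T21, 11 of them were lower and none higher, a share of 40.7% beside 38.1% of all genes. The median there was -0.77 beside -0.71 for all genes, and it became 0.39 with that scaling.

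MHC class II genes diverged from each other after T7. H2-Aa, the alpha chain of the class II molecule I-A, had normalized values of 2111 at baseline, 1560.4 at T2, 7244 at T7, 715 at T14 and 124 at T21. H2-Eb1, the beta chain of the class II molecule I-E, had 480.1 at baseline, 259 at T2, 852 at T7, 4043 at T14 and 1408 at T21. The former was highest at T7 and lowest at T21, whereas the latter was highest at T14 and at T21 still above baseline. Their differences were 1.78 (1.70 to 1.86) and 0.83 (0.64 to 1.02) at T7, -1.56 (-1.72 to -1.41) and 3.07 (2.91 to 3.24) at T14, and -4.09 (-4.41 to -3.78) and 1.55 (1.38 to 1.73) at T21. H2-Aa followed run 1 at T7, and H2-Eb1 followed run 3, that of baseline, from below. Neither gene followed run 2, although their opposite signs occur only in samples of that run, and the part of the runs was not tested. Within run 2, T21 minus T14 was -2.53 for H2-Aa and -1.52 for H2-Eb1, so both were lower at T21 than at T14.

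H2-Ab1, the beta chain that pairs with H2-Aa in I-A, had 778 at baseline, 555 at T2, 2703 at T7, 1745 at T14 and 308 at T21, and its difference at T14 was 1.17 (1.02 to 1.31), of the opposite sign to that of H2-Aa. Cd74, the invariant chain that escorts class II molecules, had 3999 at baseline, 2806 at T2, 11446 at T7, 18040.2 at T14 and 5631 at T21, with 2.17 (2.12 to 2.23) at T14 and 0.49 (0.43 to 0.56) at T21, and like H2-Eb1 it was lowest in run 3. Ciita, the activator of class II transcription, was lower at T2, where its raw count was 8 against 34 at baseline and its difference -1.87 (-3.20 to -0.73). At T7, values were higher for 6 of 8 kept class II presentation genes, of which 5 followed the run, and at T14 for 3, while at T21 6 were lower and 1, H2-Eb1, was higher. The shares higher at T7 and T14 were 75 and 37.5%, beside 19.0 and 13.3% of all genes. The share lower at T21 was 75%, beside 38.1%. The medians were -0.46, 1.48, 0.66 and -1.30 from T2 to T21, and they kept these signs under all scalings.

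MHC class I presentation genes were higher at T14 and T21 in part. H2-K1, a class I heavy chain, had 637 at baseline, 546 at T2, 509 at T7, 3569 at T14 and 3248 at T21, and Psmb10, a subunit of the immunoproteasome that cuts peptides, had 97.9 at baseline, 96.7 at T2, 154 at T7, 271 at T14 and 213 at T21. H2-K1 was thus several-fold higher in both samples of run 2, and it followed that run, as did Cd99, an adhesion protein, with 266 at baseline, 218 at T2, 217 at T7, 1301 at T14 and 1275 at T21. Psmb10 differed by 1.47 (1.06 to 1.89) and 1.12 (0.72 to 1.54) at T14 and T21, and it followed run 3, the run of baseline, from below. Of 6 kept genes, 3 were higher at T14 (50% beside 13.3% of all genes) and 2 at T21 (33.3% beside 5.06%), and none was lower at any time. All of these higher genes follow a run. The third at T14 was Tap1, at 1.06 (0.79 to 1.33), which followed run 3 from below. The summed normalized value of the 6 genes was 19292 at baseline, 16551 at T14 and 14095 at T21.

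T cell genes were lower than baseline in all 4 later samples by their medians, and most at T21. Cd2, an adhesion receptor of T and NK cells, had normalized values of 221 at baseline, 115 at T2, 97.9 at T7, 46.5 at T14 and 16.2 at T21. Thy1, a surface protein of T cells and of some stromal cells, had 302 at baseline, 295 at T2, 170.4 at T7, 119.7 at T14 and 68.8 at T21. Il7r, the receptor for the survival factor IL-7, had 168 at baseline, 119.7 at T2, 102 at T7, 139.6 at T14 and 37.8 at T21. For each of them baseline was the highest value and T21 the lowest. Cd2 was at least 10.6-fold lower at T21, since its count there was not above background, and Thy1 and Il7r differed by -2.13 (-2.60 to -1.69) and -2.15 (-2.80 to -1.55). Cd3d, a chain of the T cell receptor complex, was lower as early as T2, at -1.50 (-2.48 to -0.61). Of the 12 kept genes none was 2-fold higher at any time, and 1, 3, 3 and 10 were lower at T2, T7, T14 and T21. These are 8.33, 25, 25 and 83.3%, beside 5.78, 6.02, 15.2 and 38.1% of all genes. Not every gene lay below baseline, since the largest difference in the list was 0.40 at T7 and 0.40 at T14. The medians of -0.53, -0.66, -0.59 and -1.51 were lower under every scaling, the last being -0.35 with pan-leukocyte scaling. At T21, 6 of the 12 were not above background.

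Genes of CD4+ and regulatory T cells were below baseline from T2 on, again by their medians. Ctla4, the inhibitory receptor of Treg and activated T cells, had 206 at baseline, 59.8 at T2, 80.1 at T7, 69.8 at T14 and 29.7 at T21. Its T2 sample, in the run of baseline, already differed by -1.79 (-2.33 to -1.27), and T21 by -2.80 (-3.51 to -2.15). Icos, a co-stimulatory receptor, had 165 at baseline, 107 at T2, 85.2 at T7, 23.3 at T14 and 13.5 at T21, and was at least 5.43-fold lower at T14 and at least 7.9-fold lower at T21. Il2ra, the high-affinity chain of the IL-2 receptor, had 106 at baseline, 79.8 at T2, 50.9 at T7, 31.6 at T14 and 31.0 at T21. Foxp3, the transcription factor of Treg cells, gave raw counts of 29 at baseline, 12 at T2, 24 at T7, 13 at T14 and 6 at T21, the last 2 at background. Of the 8 kept genes of the list, 3 (37.5%) were lower at each of T2, T7 and T14 and 6 (75%) at T21. Over all genes the shares were 5.78, 6.02, 15.2 and 38.1%. The list medians of -0.61, -0.96, -0.90 and -1.63 stayed below 0 under every scaling.

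At T21, 5 of 11 cytotoxic genes (45.5%) and 5 of 6 NK genes (83.3%) were lower, beside 38.1% of all genes. All 5 of these NK genes were at background at T21, as were 5 of the 11 cytotoxic genes. The cytotoxic median of T21 changed sign with the scaling, while the NK median of -2.26 was -0.97 with pan-leukocyte scaling. Gzma, which encodes granzyme A, had 512 at baseline, 269 at T2, 789.8 at T7, 550.0 at T14 and 119 at T21, below baseline at T2 and T21 and above it at T7. Klrc1, an inhibitory NK receptor chain, had 111 at baseline, 62.9 at T2, 129.7 at T7, 73.1 at T14 and 16.2 at T21, at background at T21. Il2rb, the IL-2 and IL-15 receptor chain of NK and CD8+ T cells, had 483 at baseline, 207 at T2, 369 at T7, 292 at T14 and 76.9 at T21, with -1.22 (-1.52 to -0.93) at T2 and -2.65 (-3.08 to -2.24) at T21. Cd8a was close to background throughout, with raw counts of 9 at baseline, 3 at T2, 9 at T7, 16 at T14 and 21 at T21, and only the baseline and T21 counts exceeded it. The median of 11 cytotoxic genes was -0.70 at T2, 0.53 at T7, 0.17 at T14 and -0.80 at T21, and pan-leukocyte scaling turned the last 3 to -0.41, -0.10 and 0.35. Of 6 NK genes 3 were lower at T14 (50% beside 15.2% of all genes), where 4 of the 6 were at background, and 5 at T21. At T7 the NK median of 0.52 turned to -0.42 under pan-leukocyte scaling, with 4 genes following the run. The exception at T21 was Hcst, the adaptor DAP10 of NK and T cell receptors, which had 15.9 at baseline, 18.4 at T2, 28.0 at T7, 113 at T14 and 47.2 at T21.

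Among the genes of the PD-1 axis, Cd274, encoding PD-L1, had 339 at baseline, 279 at T2, 499 at T7, 276 at T14 and 163 at T21. It was highest at T7 and lowest at T21, with differences of 0.56 (0.33 to 0.79) and -1.05 (-1.38 to -0.74) that changed sign under pan-leukocyte scaling, to -0.38 and 0.10. Pdcd1, encoding PD-1, gave raw counts of 22 at baseline, 8 at T2, 15 at T7, 6 at T14 and 18 at T21, above background at baseline, T2 and T21. Pdcd1lg2, encoding PD-L2, gave 36 at baseline, 22 at T2, 9 at T7, 17 at T14 and 20 at T21 and was at least 2.14-fold lower at T7. Of the 5 kept checkpoint genes, 3 were lower at T2 (60% beside 5.78% of all genes). There Tigit, another inhibitory receptor of T and NK cells, differed by -1.35 (-2.14 to -0.61).

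Some cytokine and chemokine genes were higher at T14 and T21 than at baseline. Nos2, which makes nitric oxide in activated myeloid cells, had 11.9 at baseline, 26.1 at T2, 43.2 at T7, 88.1 at T14 and 63.4 at T21, above baseline in all 4 samples, with 2.89 (1.86 to 4.09) at T14. Cxcl13, a chemokine for B cells and follicular T cells, was at background at baseline and T2 and at least 3.41-fold higher at T7, 19.3-fold at T14 and 3.86-fold at T21, with raw counts of 7 at baseline, 5 at T2, 30 at T7, 130 at T14 and 32 at T21. Both were highest at T14. The counting intervals of Cxcl13 were 0.83 to 3.47 at T7, 3.46 to 5.89 at T14 and 1.02 to 3.65 at T21. Cx3cl1, or fractalkine, had 37.0 at baseline, 98.2 at T2, 94.1 at T7, 148 at T14 and 148 at T21, and its higher value of T2 was read in the run of baseline. Tnf, the inflammatory cytokine TNF, had 152 at baseline, 138 at T2, 119.5 at T7, 673 at T14 and 256 at T21, highest at T14 at 2.15 (1.84 to 2.46). Cx3cl1 followed run 2 from above and Nos2 followed run 3, that of baseline, from below, while Tnf and Cxcl13 followed no run.

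Cxcl12, a chemokine made by stromal cells that retains leukocytes, went the other way, with 143 at baseline, 70.6 at T2, 16.5 at T7, 28.2 at T14 and 17.5 at T21. It differed by -1.02 (-1.55 to -0.51) at T2 and was at least 6.42-fold lower at T7, 4.69-fold at T14 and 6.83-fold at T21. Fn1, the matrix protein fibronectin, had 4039 at baseline, 4290.0 at T2, 1801 at T7, 931 at T14 and 1175 at T21, near baseline at T2 and lower afterwards. Ptgs2, the prostaglandin enzyme COX-2, had 8368 at baseline, 8137 at T2, 6172 at T7, 3212 at T14 and 4594 at T21, lowest at T14 with -1.38 (-1.46 to -1.31). Of 22 kept chemokine genes 11 were lower at T21 (beside 38.1% of all genes), with a median of -1.06 that pan-leukocyte scaling turned to 0.09. The 10 kept chemokine receptors had a median of 0.63 at T7, which that scaling turned to -0.31, and of -1.11 at T21, which it turned to 0.05.

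Complement genes were in part lower at T21, 8 of 14 kept ones (57.1% beside 38.1% of all genes). Their median of -1.19 was -0.03 under pan-leukocyte scaling. C4a, another gene of the complement list, differed by -1.22 (-2.04 to -0.45) at T2 and was at least 3.41-fold lower at T21. Cd55, a regulator that shields cells from complement, was at background in all 4 later samples and at least 4.01-fold lower at T2, with raw counts of 29 at baseline, 4 at T2, 5 at T7, 9 at T14 and 6 at T21. Serping1, the C1 inhibitor, had 168 at baseline, 139.6 at T2, 64.9 at T7, 83.1 at T14 and 138 at T21, lowest at T7 and near baseline at T21. Of 11 type I interferon response genes none was higher or lower at T2 or T7. At T14, 2 were higher (18.2% beside 13.3% of all genes) and 4 lower (36.4% beside 15.2%). At T21, 5 were lower (45.5% beside 38.1%). The median there was -0.87 beside -0.71 for all genes, and it became 0.29 with pan-leukocyte scaling. Ifit2, an interferon-induced gene, had 259 at baseline, 201 at T2, 164 at T7, 76.4 at T14 and 97.1 at T21, and Irf7, the regulator of type I interferon, had 167 at baseline, 152 at T2, 170.4 at T7, 99.7 at T14 and 55.3 at T21.

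At T21, 4 of 7 dendritic cell genes (57.1%) and 2 of 5 co-stimulatory ligand genes (40.0%) were lower, beside 38.1% of all genes. Irf8, a transcription factor of dendritic cells and monocytes, had 153 at baseline, 81.3 at T2, 249 at T7, 109.7 at T14 and 27.0 at T21. Ccr7, which guides dendritic cells and T cells to lymph nodes, had 127 at baseline, 99.7 at T2, 106 at T7, 63.1 at T14 and 20.2 at T21 and was at least 6.07-fold lower at T21. Both were lowest at T21. Ccl22, a chemokine of dendritic cells for Treg cells, was lower at T2 already, at -1.54 (-2.89 to -0.36), and at background afterwards. The co-stimulatory ligand genes Cd86 and Cd40 differed by -2.04 (-2.54 to -1.57) and -2.06 (-2.87 to -1.33) at T21, and Cd40 by -1.13 (-1.76 to -0.52) at T2. None of the dendritic cell genes was higher at any time, and their T21 median of -1.40 was -0.25 with pan-leukocyte scaling. Btk, a kinase of B cells and myeloid cells, gave raw counts of 32 at baseline, 21 at T2, 51 at T7, 37 at T14 and 6 at T21 and was at least 2.02-fold lower at T21, while Tnfrsf13b, the receptor TACI of B cells and macrophages, had 17.2 at baseline, 13.8 at T2, 47.1 at T7, 66.5 at T14 and 31.0 at T21, highest at T14.

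Of 21 kept genes of the NF-kB pathway, which carries inflammatory signals to the nucleus, none was 2-fold higher or lower at T2. At T7 1 was lower (4.76% beside 6.02% of all genes). At T14 2 were higher (9.52% beside 13.3%) and 1 lower (4.76% beside 15.2%). At T21 1 was higher (4.76% beside 5.06%) and 4 lower (19.0% beside 38.1%). Nfkbia, the inhibitor of that pathway, had 3104 at baseline, 3033 at T2, 2839.9 at T7, 7702 at T14 and 7358 at T21, high in both run 2 samples and following that run, as did Socs3, an inhibitor of cytokine signals, with 524 at baseline, 422 at T2, 605 at T7, 1353 at T14 and 1519 at T21. Tnfaip3, a brake on the pathway that did not follow the run, had 2075 at baseline, 2007 at T2, 2053 at T7, 1416 at T14 and 807 at T21 and differed by -1.36 (-1.50 to -1.23) at T21. Of 13 kept genes of the IL-1 family, 3 were lower at T14 (23.1% beside 15.2% of all genes) and 4 at T21 (30.8% beside 38.1%). Il1rn, the antagonist of the IL-1 receptor, had 606 at baseline, 634 at T2, 1085 at T7, 309 at T14 and 115 at T21, and Il18r1, a chain of the IL-18 receptor, had 119 at baseline, 96.7 at T2, 59.8 at T7, 29.9 at T14 and 27.0 at T21. Il1rn was highest at T7 and Il18r1 at baseline, and their differences at T21 were -2.40 (-2.75 to -2.06) and -2.14 (-2.92 to -1.43). Of 8 genes of the TGF-beta axis, 1 was higher at T7 (12.5% beside 19.0% of all genes). At T14, 2 were lower (25% beside 15.2%), and at T21 1 was (12.5% beside 38.1%). Tgfb1 itself had 861 at baseline, 746 at T2, 1429 at T7, 753 at T14 and 561 at T21.

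Genes for adhesion and for control of adenosine included some of the higher values of T7. Itgal, a chain of the integrin LFA-1, had 151 at baseline, 172 at T2, 518 at T7, 238 at T14 and 72.8 at T21, and Entpd1, the ectoenzyme CD39, had 202 at baseline, 176 at T2, 678 at T7, 307 at T14 and 103 at T21. Both followed run 1, with differences of 1.78 (1.48 to 2.09) and 1.74 (1.48 to 2.01) at T7. Both were below baseline at T21, at -1.05 (-1.54 to -0.57) and -0.98 (-1.40 to -0.57). Itga6, an integrin chain, had 505 at baseline, 483 at T2, 273 at T7, 138 at T14 and 139 at T21 and lay below all other runs in run 2. Of 17 kept genes of this kind 5 were higher at T7 (29.4% beside 19.0% of all genes) and 5 lower at T21 (29.4% beside 38.1%). Of 9 apoptosis and survival genes none was higher or lower at T2 or T7. At T14, 2 were lower (22.2% beside 15.2% of all genes), and at T21 2 (22.2% beside 38.1%).

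Some of the lowest values at T14 and T21 belonged to genes that follow run 2. Lilrb4a, an inhibitory receptor of myeloid cells, had 1307 at baseline, 1166 at T2, 2004 at T7, 344 at T14 and 54.0 at T21. Hif1a, the sensor of low oxygen, had 555 at baseline, 552 at T2, 666 at T7, 138 at T14 and 60.7 at T21. Ptpn22, a phosphatase of lymphocytes, had 210.3 at baseline, 193 at T2, 104 at T7, 54.8 at T14 and 39.1 at T21. In all 3 the samples of run 2 lay below all samples of runs 1 and 3, irradiated ones included, so the time and the run cannot be told apart. Lilrb4a and Hif1a also followed run 1, from above, at T7. Within run 2, Lilrb4a still differed by -2.67 and Hif1a by -1.18 between T14 and T21, whereas Ptpn22 differed by -0.49.

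At T21 the lower values reached beyond single cell types. Ptprc itself differed by -1.38 (-1.66 to -1.10), and 7 of 9 pan-leukocyte genes were lower, against 38.1% of all genes, while 4 of 10 CD45-negative genes were. Cd48, a surface protein of most leukocytes, had 221 at baseline, 150.4 at T2, 328 at T7, 183 at T14 and 51.2 at T21, and Arhgdib, another gene of the pan-leukocyte list, had 1291 at baseline, 1467 at T2, 2003 at T7, 1379 at T14 and 1366 at T21. The former was lowest at T21 and the latter close to its value at baseline. The part that the share of leukocytes in the sample had in the lower values was not tested. Within run 2, 156 genes (37.6%) were lower at T21 than at T14 and 5 (1.20%) higher. All of the T21 counts given here are those of the housekeeping scaling.

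**Figure D3:**
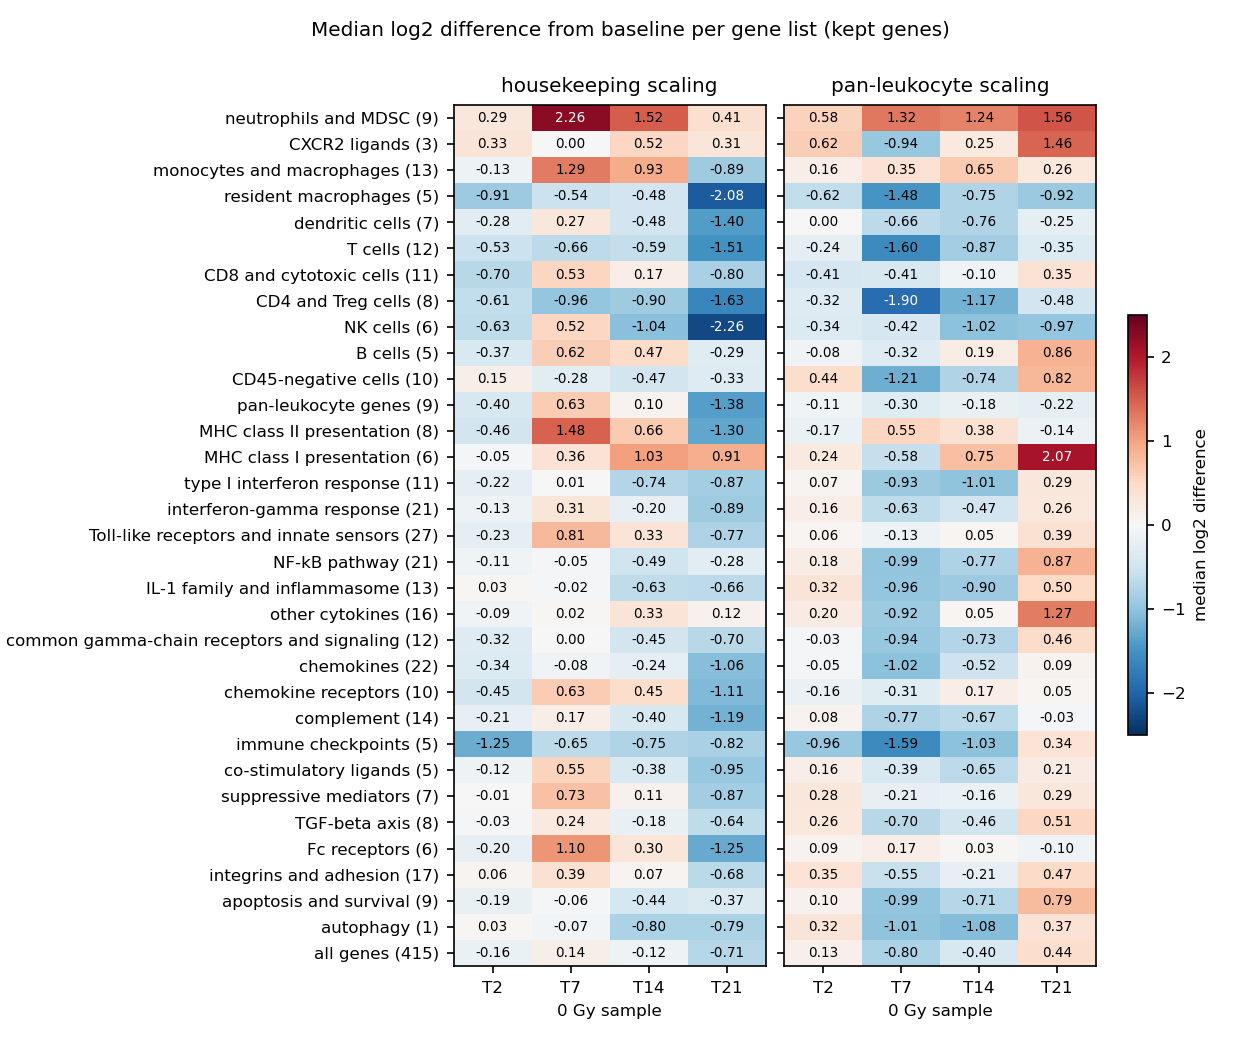
Median log2 difference from baseline (colour and printed value) over the kept genes of each list (vertical axis, number of genes in parentheses) in each 0 Gy sample (horizontal axis), with the deposited housekeeping scaling on the left and scaling to pan-leukocyte genes on the right. Neutrophil and MDSC genes stay above 0 and T cell, CD4 and Treg cell and resident macrophage genes below 0 in all 8 columns. At T21 many medians change sign between the scalings, among them the monocyte and macrophage, cytotoxic, CD45-negative, chemokine and chemokine receptor medians.

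**Figure D4:**
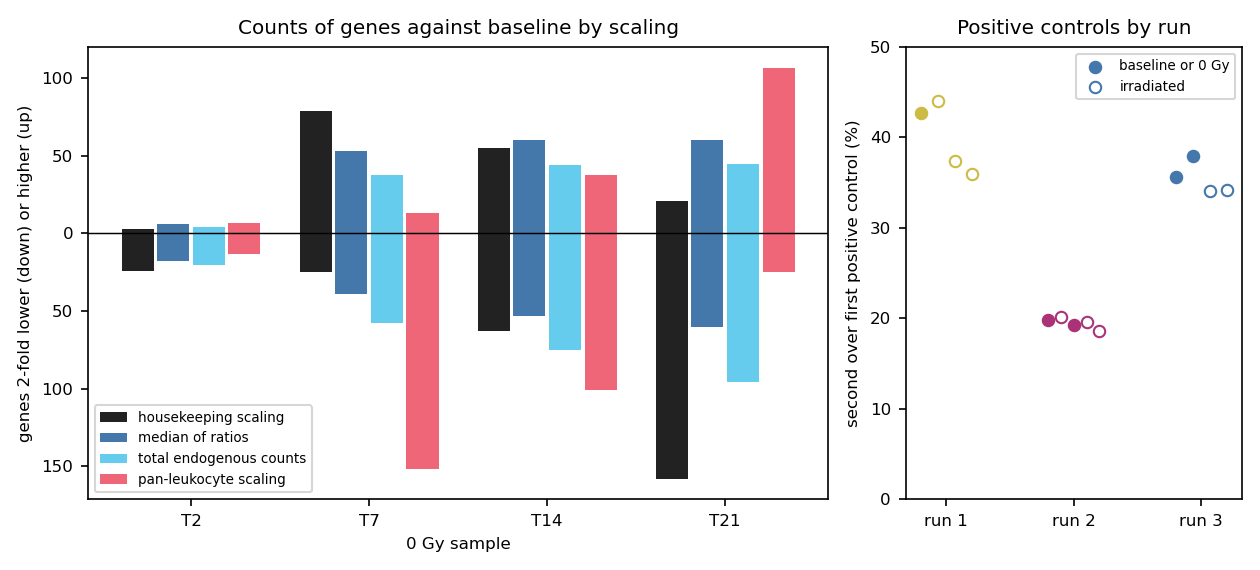
Left, genes at least 2-fold higher (up) or lower (down) than baseline in each 0 Gy sample under 4 scalings; right, the second positive control as a percentage of the first in all 13 samples by nCounter run, filled points being the baseline and 0 Gy samples. At T21 the lower genes number 158 with housekeeping and 25 with pan-leukocyte scaling, and the 5 samples of run 2 lie between 18.6 and 20.2% while all others lie between 34.1 and 44.0%.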

How the data were processed

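RNA of CD45+ cells from CT26 tumors was counted on the nCounter mouse immunology panel in 13 samples, of which 5 are described here. The deposited raw values are counts of barcoded probes per gene, not normalized. The authors also deposited a normalized signal, which equals the raw counts multiplied by 1 factor per sample, set so that the 14 housekeeping genes have a geometric mean of 789. In it, raw counts below the geometric mean of a sample's negative controls are replaced by that mean, and the signal of the series table differed from it in 0 of 7475 values. RefSeq identifiers were mapped to symbols (549 of 561 genes matched), and the other 12 stay unnamed. Endogenous genes above a mean raw count of 13.1 were kept.

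Differences are log2 of the deposited normalized signal, with a floor of 1, at the later time minus baseline. The 95% intervals are exact (Clopper-Pearson, from the 2 raw counts) and cover counting error only. On Poisson counts simulated for the 415 genes they held the true value for 95.2 to 97.8% of genes. The intervals assume the same model, so this checks their calculation only, with no effect of run, scaling or background in the simulated counts. A sample's background is the mean plus 2 SD of its 8 negative controls, and lower bounds of a fold use that count without counting error. Python 3.11.15 with numpy 2.4.6, pandas 2.3.3, scipy 1.17.1 and matplotlib 3.10.9 was used. Promoter sequences came from RefSeq (GRCm38.p6).

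The members and gene lists were chosen with earlier results of these data known. Genes were named by rule: per comparison the 8 highest and 8 lowest differences among genes above background in both samples, the 3 largest lower bounds in each direction, genes past 2-fold at T7, T14 and T21, up to 4 members per list with the largest difference, the PD-1 axis, Ptprc and the pan-leukocyte genes. Outside this rule H2-Ab1, Cd4, C3, Cd34, Sele, C1qb, Cfp, H2-DMa, Il21 and Lta were named after their values were seen. Alternatives were other scalings (median of ratios, total endogenous counts, pan-leukocyte genes), no filter, a floor at background, leaving out genes that follow a run, and a reference averaged over baseline and T2. Leaving out genes that follow the run of either sample, and low values without the replacement, were added after seeing the data.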

Additional observations from a re-analysis of the deposited data

Results flagged for a closer look

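Several genes of macrophages and antigen presentation lay on opposite sides of baseline at different times, each with its whole counting interval beyond 2-fold on both sides. The difference between the times was not tested, since each time has 1 sample. C1qb, a chain of complement C1q, differed from baseline by 1.36 at T7 and -1.18 at T21 on the log2 scale. Cfp, which encodes properdin, differed by 1.35 and -1.63, and Ctss, the protease cathepsin S that trims the invariant chain, by 1.32 and -2.05. The Fc receptor genes Fcgr1 and Fcgr3 differed by 1.31 and -1.50 and by 1.29 and -1.71. H2-DMa, which helps load class II molecules, differed by 1.72 and -1.67. H2-Aa differed by 1.78 at T7, -1.56 at T14 and -4.09 at T21, and H2-Ab1 by 1.80, 1.17 and -1.34. These values are those of the housekeeping scaling, and T7, T14 and T21 were not read in the run of baseline. Ctss, Fcgr1, Fcgr3 and H2-Aa followed run 1 from above at T7. Pan-leukocyte scaling shifts the genes by -0.94 at T7 and 1.16 at T21. With it Fcgr1 differed by 0.38 and -0.35 at these times, Fcgr3 by 0.35 and -0.55, Ctss by 0.39 and -0.89, and H2-Aa by 0.84 and -2.93.

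Among the genes removed for low mean counts, a pair of cytokine genes was above background at T21 only. Il21, a cytokine of helper T cells, was at least 2.53-fold above baseline, and Lta, encoding lymphotoxin alpha, at least 3.01-fold.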

How the results depend on the processing

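With 1 sample per time no replicate could be left out, and none of the counts has a test. No paired analysis was possible because each time holds 1 sample, and the digits that end the column names are not explained by the labels. Of the 8 counts of genes past 2-fold, those that moved by more than 1.5 times were as follows, and the cause was not tested except where a scaling shifts the genes of a sample by 1 amount, apart from replaced low values. With median-of-ratios scaling, 6 genes were higher at T2, 39 lower at T7, and 60 higher and 60 lower at T21. With scaling to total endogenous counts, 38 were higher and 58 lower at T7, and 45 higher and 96 lower at T21. With pan-leukocyte scaling, 7 were higher and 13 lower at T2, 13 higher and 152 lower at T7, 101 lower at T14, and 107 higher and 25 lower at T21. Without the filter on low counts, which adds 132 genes, 16 were higher and 39 lower at T2, 134 higher at T14 and 98 higher at T21. Without genes that follow the run of the later sample 46 were higher at T7 and 10 at T21. Without those that follow the run of either sample, a choice made after seeing the data, 40 were higher at T7, 33 higher and 38 lower at T14, and 4 higher at T21. With scaled raw counts in place of the replaced low values, also chosen then, the 8 counts were unchanged. With the reference averaged over baseline and T2, 14 were lower at T7. A floor at background moved none of the 8 by that much. Among list medians past 2-fold, those of the chemokines and of the chemokine receptors at T21 changed sign with pan-leukocyte scaling, to 0.094 and 0.049. Depth limits low genes most: 31 genes at T7, 60 at T14 and 65 at T21 were above background at baseline only, and for these only a lower bound of the fold exists.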
